A study of Arabidopsis thaliana with 12 samples.

Results

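The H3K4me3 peaks of an Arabidopsis thaliana atx3/4/5 mutant were compared with those of the wild type. The members were all 14496 peaks of the wild-type list and all 13622 peaks of the mutant list, 28118 of the 80922 peaks in the 5 lists of the series. A peak was kept when a peak of the other list overlapped it by at least 1 bp, and otherwise it was absent from, or gained in, the mutant. A one-to-one pair was a peak of each list that overlapped each other and no further peak. The series profiled rosette leaves of the Columbia (Col-0) accession by chromatin immunoprecipitation sequencing (ChIP-seq) and RNA sequencing, to find the genes and regions that depend on putative H3K4 methyltransferases. The leaves came from plants aged 4 weeks, grown with a light period of 16 h at 22 °C and a dark period of 8 h at 20 °C. Each ChIP-seq group, namely H3K4me3 in wild type, atx3/4/5 and sdg2, and H3K4me2 in wild type and atx3/4/5, holds 1 library beside an input library of its genotype, so the peak comparisons have neither a replicate spread nor a test between genotypes. RNA came from 2 libraries each of wild type and atx3/4/5, which the authors combined into 1 value per genotype. The labels name the mutants as atx3/4/5 and sdg2 and give no insertion alleles.

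H3K4me3 is a histone mark found at the beginnings of transcribed genes, where it spreads from the transcription start into the first part of the gene body. It is written by SET-domain methyltransferases, among them the trithorax-like ATX proteins and SDG2 (also ATXR3) in Arabidopsis. The mark is closely tied to transcription: strongly and broadly expressed genes carry strong peaks, and a gene that is switched on gains the mark. A peak list records where a signal passed the threshold of the peak caller. A weak signal that drops slightly can leave the list, while a strong signal can drop a good deal and stay.

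The genes named in the mutant kept their H3K4me3 peaks. The peak over ATX3 (AT3G61740) was 1317 bp wide in wild type and 1221 bp in atx3/4/5, that over ATX4 (AT4G27910) 915 bp and 712 bp, and that over ATX5 (AT5G53430) 1234 bp and 1103 bp. None of the 3 was called in RNA, with q-values of 0.941, 0.0541 and 0.945 and FPKM values (fragments per kilobase, scaled to sequencing depth) of 4.17 and 4.38, 1.05 and 2.88, and 3.93 and 3.76 in wild type and mutant in the authors' deposited table. The tables do not show which stretch of each gene is altered, so these values do not check the genotype labels. The peak over SDG2 (AT4G15180) measured 1397 bp and 1440 bp, and its RNA was called higher, from 0.884 to 3.55 (q = 0.00184, the authors' deposited table).

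Leaf identity was visible in both lists. All 5 mesophyll markers (RBCS1A, LHCB1.1, LHCB2.1, CA1 and GLDP1) carried H3K4me3 in both genotypes, of which LHCB1.1 was called lower, while their summed FPKM was 44048 in wild type and 17782 in the mutant, both from the authors' deposited table. The epidermal factor ATML1 and the phloem sucrose transporter SUC2 carried a peak in wild type only. The ATML1 peak of 619 bp was weak, with a score of 66.2 against a median of 142 over all absent peaks. ATML1 RNA was 13.0 and 11.7 in wild type and mutant and not called in the authors' deposited table. The summed FPKM of the 3 epidermis and guard cell markers was 19.2 and 18.9 in that table, and ATML1 alone of them had a wild-type peak. SUC2 had a peak of 1488 bp, and its RNA went from 303 to 96.3 in the authors' deposited table, with a q of 0.0164. Root, seed and pollen markers were low: RHD6 and AGL104 were at 0 in both genotypes, CRA1 and CRU3 were at 0 in wild type, and the summed FPKM of the 4 root markers was 7.94 and 1.79 in the authors' deposited table. Of these root, seed and pollen markers only CASP1 and OLEO1 had a wild-type peak, and neither had one in the mutant. Both share their locus, and so its peaks, with another gene, and their wild-type FPKM was 0.854 and 0.213 in the authors' deposited table. The part of a different mix of cell types in the results was not tested.

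Most of the H3K4me3 landscape of wild-type leaves was present in atx3/4/5, and peaks without a counterpart were weak. In all 12896 one-to-one pairs were formed, which held 89.0% of the wild-type peaks. Of the bases under wild-type peaks 85.1% also lay under mutant peaks, and of the bases under mutant peaks 93.1% lay under wild-type peaks. Absent were 1427 wild-type peaks, or 9.84%, and gained were 497 mutant peaks, or 3.65%. The median absent peak was 793 bp wide with a score of 142, against 1104 bp and 857 for kept peaks. Gained peaks resembled absent ones, with medians of 829 bp and 144. The score is the authors' own and is taken to be the −log10 of the p-value of the peak multiplied by 10.

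**Figure D1:**
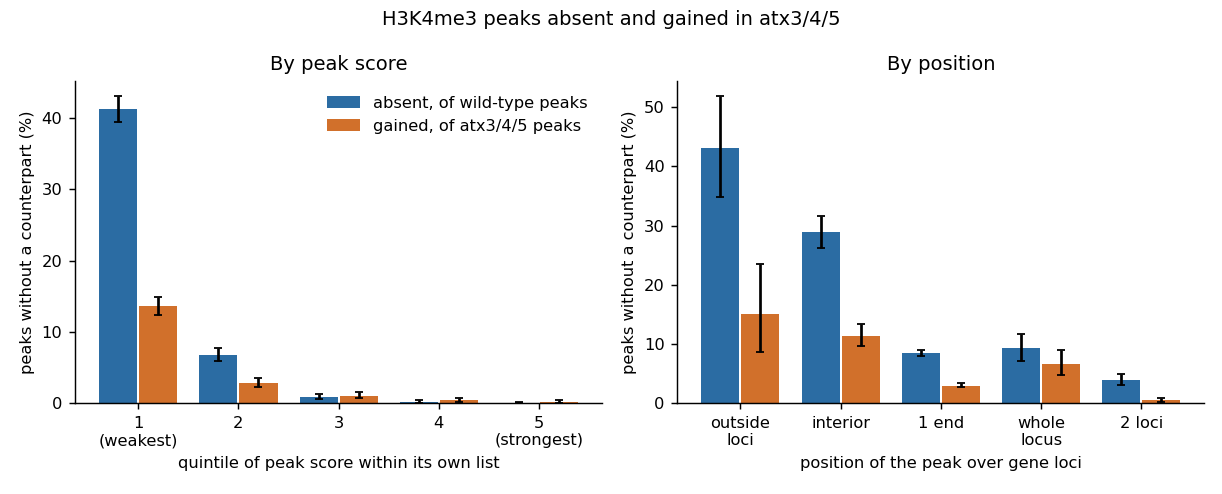
Share of wild-type H3K4me3 peaks absent in atx3/4/5 (blue) and of atx3/4/5 peaks gained (orange), in percent, by quintile of peak score within its own list (left) and by position over gene loci (right); bars are shares and whiskers exact 95% intervals for counting error only. The absent share is 41.2% in the weakest quintile and 0.0690% in the strongest, and it is higher for peaks outside loci (43.2%) and inside loci (28.9%) than at 1 end (8.52%).

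The share of absent peaks dropped steeply along the wild-type score. From the weakest to the strongest quintile it was 41.2%, 6.76%, 0.931%, 0.207% and 0.0690%, as the plot of absent and gained peaks by score shows. Gained peaks followed the mutant score less steeply, from 13.6% in the weakest quintile over 2.90%, 1.06% and 0.441% to 0.220% in the strongest. The weakest quintiles held 1196 absent and 371 gained peaks, and the strongest held 2 and 6. With both lists cut to the same number of best-scoring peaks, 6.55% of the wild-type peaks were absent and 6.09% of the mutant peaks gained. Lists of equal length that match mostly one to one give nearly equal shares by construction. The cause of the excess of losses in the full lists was not tested. Intervals given with shares are exact (Clopper-Pearson) 95% intervals and cover counting error only. Peak lists carry no read totals, so sequencing depth is unknown.

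Losses were spread over the genome. The absent share lay between 9.08% on chromosome 1 and 10.4% on chromosome 5. Across 102 windows of 1 Mb with at least 50 wild-type peaks it ranged from 3.23% to 17.9%, with a median of 9.97%. Absent peaks did not cluster much along the chromosome, since the next wild-type peak was also absent after 10.8% of them, against 9.84% overall. Gained peaks did so more often, with 9.26% against 3.65%. The longest series of neighbouring gained peaks, 8 in number, lay on chromosome 3 between 14195516 and 14202935 (TAIR10). It covers AT3G41761, AT3G41762 and the ribosomal RNA genes AT3G41768 and AT3G41979, whose many copies cannot be told apart by reads, so these gains are uncertain.

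Peaks inside a gene were absent more often than peaks at its end. Of the wild-type peaks 73.6% covered 1 end of a single locus, 12.8% touched 2 loci, 7.80% lay in the interior of a locus, 4.39% covered a whole locus and 0.959% touched no locus. The absent share was 43.2% outside loci (interval 34.8 to 51.8), 28.9% in the interior (26.3 to 31.7), 9.26% over whole loci, 8.52% at 1 end (8.00 to 9.07) and 3.88% across 2 loci (3.05 to 4.87). Among the lower 2 score quintiles alone the order was the same at 47.2%, 43.5%, 26.8%, 20.9% and 14.6%. Gained peaks had a like distribution, with 27.0% in the interior of a locus against 7.95% of mutant peaks with a counterpart. Locus ends are those of the deposited gene table, which gives no strand, so starts and ends of transcription were not told apart.

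The highest-scoring absent peaks lay over genes of varied function, most of them weakly expressed. Past AT2G19780, MSL5 (AT3G14810, a mechanosensitive channel protein), ADS1 (AT4G29140, a transporter), the pair AT1G50270 and AT1G50280, and AT4G12690, they lay over AT3G57830, AT3G60110, IPT1, CYP707A3, AT3G17640, the pair AT4G40080 and AT4G40085, and SLD2. Over IPT1 (AT1G68460), which encodes an enzyme of cytokinin synthesis, the wild-type peak was 1367 bp wide with a score of 971 (chromosome 1, 25668867 to 25670233). The gene was not tested for RNA, with an FPKM of 0.531 in wild type and 0.0179 in the mutant in the authors' deposited table. CYP707A3 (AT5G45340), an abscisic acid 8'-hydroxylase, lost a peak of 1744 bp (chromosome 5, 18369441 to 18371184), and its RNA was lower, from 6.86 to 0.874 (q = 0.00184, the authors' deposited table). Over SLD2 (AT2G46210), a sphingolipid desaturase, a peak of 1866 bp was absent, while the FPKM was 2.73 and 2.34 in the authors' deposited table. The locus shared by AT1G50270 and AT1G50280 kept another H3K4me3 peak, 2202 bp wide in the mutant. Of the 14 genes under these 12 peaks all 14 still had H3K4me3 in sdg2, and all 14 had H3K4me2 in wild type, of which 8 kept it in atx3/4/5.

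The highest-scoring gained peaks lay over receptor genes and genes with raised RNA. They covered CRK36, CRK6 and CRK7, cysteine-rich receptor-like kinases, and RLP28, RLP20 and RLP43, receptor-like proteins, as well as AT4G00695 with AT4G00700, AT1G13470, AT1G65690, AT1G13330 with AT1G13340, and AT1G10340. A further peak lay beside the ribosomal RNA genes. The loci of RLP43 and AT1G13340 already had another peak in wild type, of 724 bp and 909 bp. The CRK36 (AT4G04490) peak was 2109 bp wide (chromosome 4, 2232702 to 2234810), and RNA of the gene was higher, from 2.25 to 26.8 (q = 0.00184, the authors' deposited table). CRK6 (AT4G23140) and CRK7 (AT4G23150), neighbours on chromosome 4, had new peaks of 1358 bp and 1492 bp, and both were called higher, CRK7 from 1.91 to 31.2, in the authors' deposited table. RLP20 (AT2G25440) gained 2217 bp of H3K4me3, and its RNA went from 0.272 to 5.54, called higher in the authors' deposited table. RLP28 (AT2G33080) had a peak of 1854 bp and FPKM values of 0.0409 and 3.09 but was not called (q = 0.283, the authors' deposited table). Of the 14 genes under these peaks 5 had H3K4me3 in sdg2, and 4 of these 5 were at the loci of RLP43 and AT1G13340.

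Such gains were frequent in whole receptor and WRKY families, which were chosen after their values had been seen. Among 19 CRK genes without H3K4me3 in wild type 7 were new in atx3/4/5, and 6 of these were called higher in the authors' deposited table. Of 25 unmarked RLP genes 12 were new, 5 of them called higher, and of 35 unmarked WRKY genes, which encode transcription factors of the defence response, 9 were new and 6 called higher in the authors' deposited table. The share of new genes among all unmarked genes was 2.86%. By wild-type FPKM it was 0.410% at 0, 3.87% above 0 and up to 1, and 9.99% above 1 and up to 10, in the authors' deposited table. Of all tested new genes 151 of 409 (36.9%) were called higher by that table. The part of expression in the family counts was not tested. The wall-associated kinase gene WAK3 (AT1G21240) had a new peak of 1949 bp and went from 0.425 to 18.6 in the authors' deposited table. Tandem members of these families are similar in sequence and may share reads, so their single values are uncertain.

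Where a peak was kept, its width was nearly the same. The median log2 width ratio of the pairs, atx3/4/5 over wild type, was -0.05, or -40 bp, and 63.8% of the mutant peaks were the narrower of the pair. By a factor of 1.5 or more 372 pairs were narrower (2.88%) and 91 wider (0.706%). For comparison, pairs of H3K4me2 peaks in the same mutant had a median of -0.23 with 23.9% narrower by that factor, and H3K4me3 pairs of sdg2 a median of -0.57 with 48.5%. The sdg2 and atx3/4/5 comparisons of H3K4me3 share the wild-type library. A pair chosen for a broad wild-type peak tends to be narrower in any second library, so pairs were also ordered by their mean width. The median log2 ratio was then -0.10 in the narrowest quintile, -0.05 in the next and -0.04 in each of the broader 3. Among pairs of like score (log2 ratio within 0.32), 0.760% were narrower and 0.0621% wider by the factor of 1.5, so most such pairs also differed in score.

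**Figure D2:**
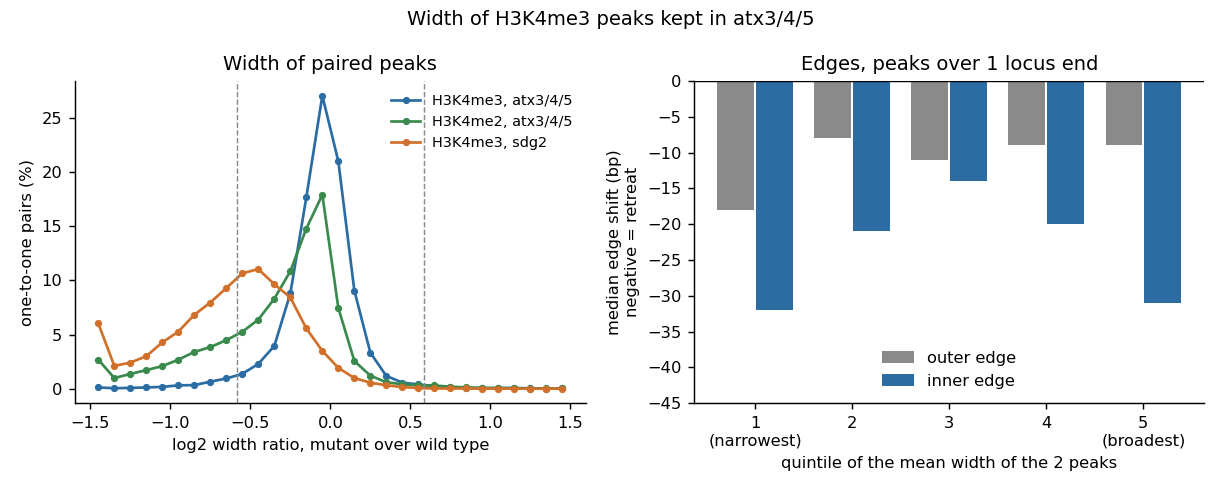
Left, share of one-to-one pairs (percent) by log2 width ratio in bins of 0.1, for H3K4me3 in atx3/4/5 (blue), H3K4me2 in atx3/4/5 (green) and H3K4me3 in sdg2 (orange), with ratios beyond the axis put in the end bins and dashed lines at a factor of 1.5. Right, median shift in bp of the outer (grey) and inner (blue) edge of H3K4me3 peaks over 1 end of a single locus, by quintile of the mean width of the pair; the inner edge moved by a median of -32 bp to -14 bp and the outer edge by -18 bp to -8 bp. Both peaks of a pair cross the same locus end, which bounds the retreat of the outer edge.

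The inner edge of paired peaks moved more than the outer edge, but the choice of pairs bounded the outer one. Both peaks of a pair had to cross the same locus end, so the outer edge could not retreat into the locus. Whether more width was lost on the side of the gene body was therefore not tested. In 9151 pairs over the same end of a single locus the outer edge, outside the gene, had a median shift of -11 bp, negative meaning inwards, and the median shift of the inner edge was -23 bp. In the 163 of them that were narrower by a factor of 1.5 the median shifts were -83 bp outside and -464 bp inside. In the 49 wider ones the outer edge advanced by 60 bp and the inner edge by 613 bp. In the broadest quintile of pairs by mean width the inner edge retreated by 200 bp or more in 15.1% and advanced by as much in 7.38%, while the outer edge did so in 0.383% and 0.0546%.

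The strong pairs that narrowed most lay over genes of varied function. The rule took pairs in which both scores reached the median of their list. The peak over BGAL1 (AT3G13750), a beta-galactosidase gene, was 4628 bp wide in wild type and 2636 bp in the mutant, a log2 ratio of -0.81. BAM2 (AT3G49670), a receptor kinase of the CLAVATA1 group, had 3395 bp and 1842 bp (-0.88), and GLDP2 (AT2G26080), a glycine decarboxylase subunit used in photorespiration, had 3044 bp and 1965 bp (-0.63). The strongest narrowing was that over TIFY8 and AT4G32560, which share a locus, from 2054 bp to 866 bp. Further members were RP1, the regulator of pyruvate phosphate dikinase, SIP2, SUB1, AT1G78070, AT3G51950, AT3G08030, the locus of EXLA1 and HTB9, and an interior peak at the shared locus of AT5G05470, AT5G05480 and AT5G05490. Of the 17 genes at these loci AT1G78070 was called lower (40.6 to 11.9) and SIP2 (AT3G57520), an enzyme of raffinose metabolism, was called higher (28.0 to 80.4) in the authors' deposited table.

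The strong pairs that widened most included receptor and chaperone genes. RLP34 (AT3G11010), which shares its locus with AT3G11000, had 1400 bp in wild type and 3095 bp in atx3/4/5, and RLK1 (AT5G60900), a receptor-like kinase, had 983 bp and 2105 bp. Their RNA was higher, from 8.53 to 41.0 and from 6.84 to 26.0 (q = 0.00184, the authors' deposited table). CRT1b (AT1G09210), a calreticulin, and SHD (AT4G24190), the HSP90 chaperone of the endoplasmic reticulum, widened from 1468 bp to 2470 bp and from 1289 bp to 1939 bp. SHD RNA went from 12.6 to 79.8 and CRT1b RNA from 33.0 to 85.8, both called higher in the authors' deposited table. RLP18 (AT2G15040) widened from 1591 bp to 2428 bp and its RNA was called higher, from 0.777 to 4.15, in the authors' deposited table. The others were the homeodomain gene BEL1, the loci of AT1G67920 and AT1G67930 and of GAMMA-VPE and AT4G32930, NBR1, AT5G41750, CYP71A21 with PIMT1, and iPGAM2, none of them called in the authors' deposited table. Near the factor of 1.5, NBR1 (1560 bp and 2331 bp) was just short of it and SHD just past it, while GNC, with 1950 bp and 1300 bp, lay at the factor and was counted as narrower.

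Few peaks were split or merged. No peak met more than 2 of the other list: 99 wild-type peaks met 2 mutant peaks, and 43 mutant peaks met 2 wild-type peaks. The widest wild-type peak of all, 4849 bp over RAB28, PSAD-2 (a photosystem I subunit), AT1G03140 and AT1G03150, was matched by mutant peaks of 2257 bp and 1919 bp. At COR413-PM1 (AT2G15970), a cold-regulated gene, and its neighbour AT2G15980, a peak of 3100 bp was matched by 1618 bp and 1080 bp, and COR413-PM1 RNA was called lower, from 395 to 124, in the authors' deposited table. In the other direction, 2 wild-type peaks of 1845 bp and 967 bp over AT1G35710 were met by 1 mutant peak of 3873 bp, and RNA of the gene was called higher in the authors' deposited table. At CAT3, a catalase gene, a peak of 3625 bp was met by a main mutant peak of 3563 bp and a further one of 862 bp.

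By gene, H3K4me3 was lost from 1390 of the 16692 marked nuclear genes, or 8.33%, and 475 of the 16586 unmarked genes, or 2.86%, were newly marked. Of the 1652 genes over an absent peak 402, or 24.3%, carried another H3K4me3 peak in atx3/4/5. In 140 of the lost genes, or 10.1%, the peak had a counterpart that no longer reached the locus, and in 50 of the new genes, or 10.5%, the peak overlapped a wild-type peak outside the locus. Genes with 2 or more wild-type peaks had at least 1 absent in 17.2% but lost all of them in 1.48%, against 9.49% of genes with a single peak. Lost shares by gene type were 8.09% of protein-coding genes (interval 7.67 to 8.53), 16.7% of long non-coding RNA genes (11.5 to 23.1), 18.6% of pseudogenes (11.6 to 27.6), 13.4% of tRNA genes (22 of 164) and 1.79% of snoRNA genes (1 of 56). Overlapping genes share a locus in the deposited gene table, and therefore its peaks.

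The new share was higher in each higher class of wild-type expression, while the lost share was highest in the class just above 0. Of marked genes listed at an FPKM of 0 in wild type 15.6% lost the mark in the authors' deposited table. Of marked genes with a wild-type FPKM above 0 and up to 1, 24.0% lost the mark, of those above 1 and up to 10 9.97%, above 10 and up to 100 4.36%, and above 100 1.69%, with levels from the authors' deposited table. Newly marked genes were 0.410% of the unmarked genes at 0, 3.87% of those up to 1, 9.99% up to 10, 16.5% up to 100 and 17.0% above 100, by the same table. Unmarked genes above 100 were few, 88 in all.

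H3K4me2 was also missing more often where H3K4me3 was absent. In wild type 80.6% of absent and 81.2% of kept peaks overlapped an H3K4me2 peak, while in atx3/4/5 the shares were 42.0% (interval 39.5 to 44.7) and 72.0% (71.2 to 72.8). Of the peaks with wild-type H3K4me2, the mutant had none at 48.7% of the absent and 15.3% of the kept ones. Among the lower 2 score quintiles these were 49.1% and 20.9%. At gained peaks H3K4me2 was already listed in wild type at 58.1% and in atx3/4/5 at 61.2%. In the sdg2 library an H3K4me3 peak was listed at 79.0% of the peaks absent in atx3/4/5, at 91.9% of those kept and at 23.1% of those gained. Among the lower 2 score quintiles of each list these shares were 78.5%, 83.2% and 23.6%, so absent and kept peaks were closer there. At the 91 wider pairs sdg2 listed a peak in 60.4%, against 80.4% of narrower pairs and 92.5% of the remaining ones.

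RNA differed in the direction of the peak. A change of RNA in whole leaves can come from fewer cells of a type or from less RNA per cell, which cannot be told apart here. Over absent peaks 1406 genes were tested, of which 233 were called lower (16.6%) and 23 higher in the authors' deposited table. Over all nuclear genes 5.36% were called lower and 4.93% higher in that table, and 10.3% of all genes in either direction. Over gained peaks 166 of 496 genes were called higher (33.5%) and 10 lower, with a median log2 FPKM ratio, atx3/4/5 over wild type, of 1.26 against -0.67 over absent peaks and -0.04 over all nuclear genes in the authors' deposited table. Of the genes in a pair 2.82% were in narrower and 0.616% in wider ones. Genes with narrower pairs were called lower in 58 of 324 (17.9%) and higher in 6, and genes with wider pairs were called higher in 39 of 76 (51.3%) and lower in 2, by the authors' deposited table.

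**Figure D3:**
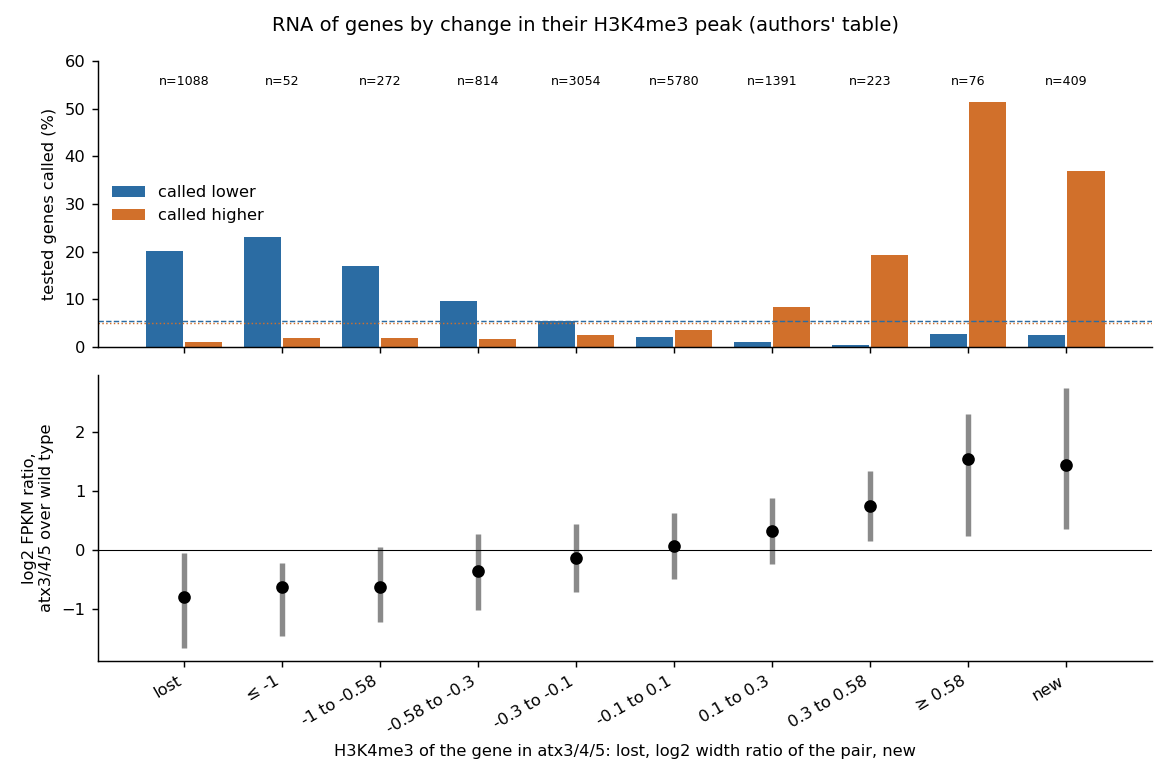
Tested genes called lower (blue) or higher (orange) in RNA, in percent (top), and median log2 FPKM ratio with its quartiles as grey bars (bottom), for genes that lost H3K4me3, genes in pairs ordered by log2 width ratio, and newly marked genes; calls and levels are those of the authors' deposited table, n is the number of tested genes and the dashed and dotted lines are the shares over all nuclear genes (5.36% lower, 4.93% higher). The median goes from -0.80 in lost genes through 0.07 in pairs of nearly equal width to 1.54 in pairs wider by a factor of 1.5 and 1.44 in new genes.

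The relation was graded along the width of kept peaks. From pairs narrowed by a log2 ratio of -1 or less to those widened past the factor of 1.5, the share of genes called higher was 1.92%, 1.84%, 1.72%, 2.42%, 3.55%, 8.34%, 19.3% and 51.3% in the authors' deposited table. The share called lower went from 23.1% through 16.9%, 9.71%, 5.50%, 2.13%, 1.08% and 0.448% to 2.63% (2 of 76) by the same table. By peak score, 19.3% of lost genes were called lower in the weakest wild-type score quintile, against 3.21% of genes there that stayed marked, and 24.6% against 4.64% in the next, in the authors' deposited table. The stronger 3 quintiles held few tested lost genes, of which 8 of 41, 3 of 16 and 3 of 15 were called lower and 0, 0 and 1 higher, by the authors' deposited table. Among genes of a wild-type FPKM above 10 and up to 100, 122 of 298 that lost the mark were called lower (40.9%), against 4.28% of those that stayed marked, in the authors' deposited table. New genes were called higher in 28.5% in the weakest mutant score quintile and in 50.7% and 63.3% in the next 2, in the authors' deposited table.

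Seen from the RNA, most called genes kept their peak. Of the 718 marked genes called lower, 220 lost the mark (30.6%, interval 27.3 to 34.2), against 6.04% of marked genes not called, with calls from the authors' deposited table. Of the 363 unmarked genes called higher, 151 were new (41.6%, interval 36.5 to 46.9), against 8.88% of unmarked genes not called, by the authors' deposited table. Of those in a pair, 13.0% of the genes called lower were narrower and 7.85% of those called higher wider, by the authors' deposited table.

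A few genes went the other way. ABCG40 (AT1G15520), an abscisic acid transporter gene, lost a wild-type peak of 779 bp while its RNA went from 0.546 to 9.88 (q = 0.00184, the authors' deposited table). The highest-scoring other absent peaks with a gene called higher lay over AT2G42360, B73 (AT5G20990), AT5G60280, AT5G45472 and AT1G24300, by calls of the authors' deposited table. All of these had another peak in the mutant, but at AT5G60280 the absent peak was the sole wild-type peak over the locus. Gained peaks over the 6 named genes called lower were 501 bp to 885 bp wide. They included GOLS2 (AT1G56600), a galactinol synthase of the cold response, with a peak of 501 bp and RNA from 12.1 to 3.52, and COPT2 (AT3G46900), a copper transporter, with 669 bp and RNA from 44.6 to 16.4, in the authors' deposited table. The others named by the rule were UMAMIT36, AT4G38340, AT2G30766 and RTFL12. Among the highest-scoring lost genes called lower, AT2G36145 went from 177 to 28.3 and AT4G29240 from 7.55 to 2.21 in the authors' deposited table.

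Gene lists of known function were counted next, beside the lost share of 8.33% and the new share of 2.86% over all nuclear genes. Salicylic acid is the hormone of defence against biotrophic pathogens, and PR genes are its classical outputs. In the list of salicylic acid and defence genes 0 of 18 marked genes lost H3K4me3, and 8 of 9 unmarked genes were new, 7 of them called higher in the authors' deposited table. Of all tested new genes 36.9% were called higher by that table. PR1 (AT2G14610) had no wild-type peak and one of 835 bp in atx3/4/5, and its RNA went from 19.4 to 1634 in the authors' deposited table. PR2 (AT3G57260), a glucanase, gained a peak of 1293 bp, with RNA from 21.5 to 764 in the authors' deposited table. The peak of PR5 (AT1G75040), a thaumatin-like protein, widened from 770 bp to 1317 bp.

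Regulators and enzymes of the same response were also newly marked. SARD1 (AT1G73805) and CBP60g (AT5G26920), which activate salicylic acid synthesis, had new peaks of 1044 bp and 1246 bp, and their RNA went from 5.51 to 31.5 and from 16.2 to 41.8, both called higher in the authors' deposited table. PBS3 (AT5G13320), an enzyme of that synthesis, gained 1491 bp, PAD3 (AT3G26830), of camalexin synthesis, 1464 bp, and NIMIN1 (AT1G02450), an NPR1 partner, 610 bp. WRKY54 (AT2G40750) widened from 798 bp to 1960 bp. WRKY38 (AT5G22570) gained 1339 bp, with FPKM values of 0.235 and 7.25 (q = 0.0676, the authors' deposited table). Of these 10 genes PR1 and SARD1 had no H3K4me2 peak in wild type, and all 10 had one in atx3/4/5. In the senescence list SAG13 (AT2G29350) gained 1575 bp and WRKY6 (AT1G62300) widened from 625 bp to 2462 bp, and both were called higher, from 14.2 to 283 and from 5.87 to 19.9, in the authors' deposited table.

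**Figure D4:**
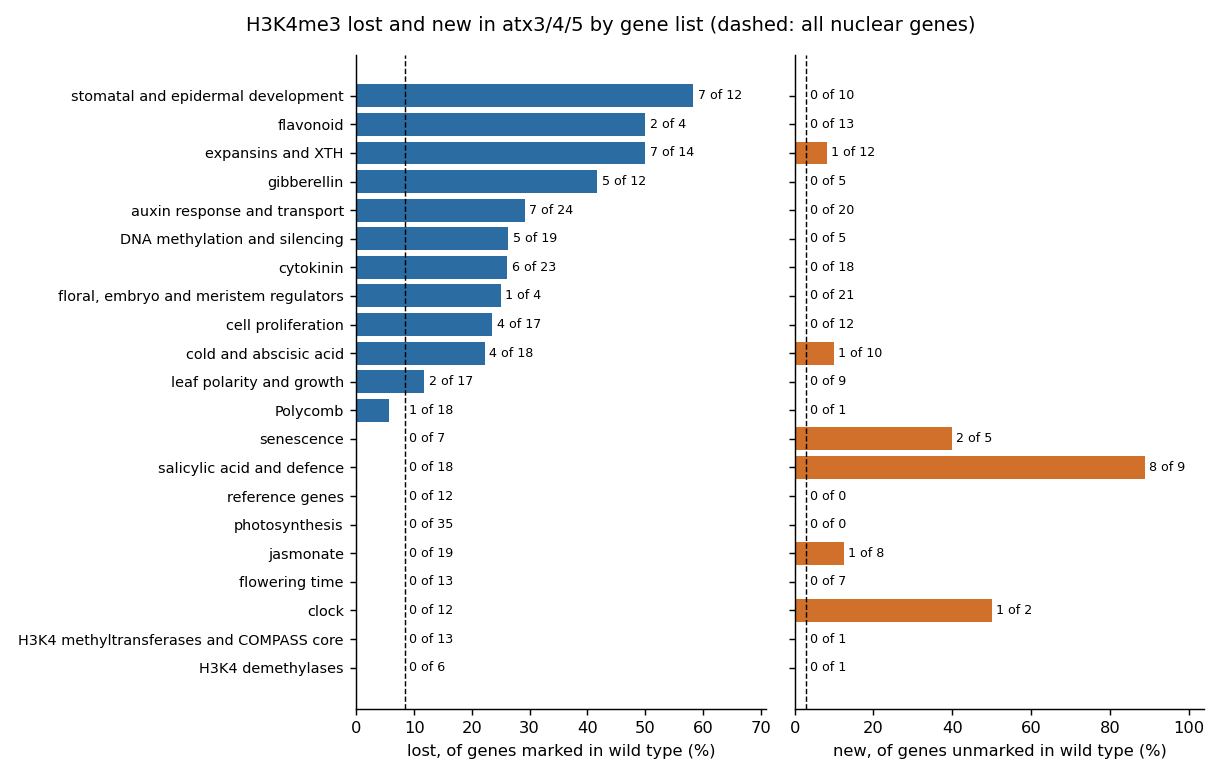
Genes of each list that lost H3K4me3 in atx3/4/5, in percent of those marked in wild type (left), and newly marked genes, in percent of those unmarked in wild type (right), with the counts beside the bars; dashed lines are the shares over all nuclear genes (8.33% and 2.86%). Losses reach 7 of 12 in the stomatal and epidermal list and 7 of 14 in the expansin and XTH list, and new marks 8 of 9 in the defence list.

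Losses exceeded the share over all genes in the expansin, gibberellin, cytokinin and auxin lists, whose wild-type peaks had median scores of 588, 605, 752 and 322, against 812 over the peaks of all genes. The part of these lower scores in the counts was not tested. Expansins and xyloglucan endotransglucosylases (XTH) loosen and remodel the cell wall. Of 14 such genes marked in wild type 7 lost the mark, EXPA3, EXPA5, EXPA11, EXPB1, XTH4, XTH9 and XTH16, of which 3 were called lower in the authors' deposited table. Of all tested genes that lost the mark 20.2% were called lower by that table. EXPA3 (AT2G37640) lost a peak of 920 bp with RNA from 61.1 to 18.5, EXPB1 (AT2G20750) 1065 bp with RNA from 55.6 to 7.81, and EXPA5 (AT3G29030) 1167 bp with RNA from 185 to 37.1, in the authors' deposited table. XTH4 (AT2G06850) lost 1439 bp, while its FPKM was 232 and 148 and not called in the authors' deposited table. XTH24 (AT4G30270, also SEN4 of the senescence list) was newly marked over 1319 bp, with 108 and 105 FPKM by the authors' deposited table.

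Gibberellin genes of both synthesis and breakdown lost the mark, mostly at weak peaks. Of 12 marked members 5 lost it. GA20OX1 and GA3OX1 make active gibberellin, GA2OX1 and GA2OX2 inactivate it, and RGL3 is a DELLA repressor. The lost peaks had scores of 112 at GA20OX1, 330 at GA3OX1, 54.95 at GA2OX1, 120 at GA2OX2 and 210 at RGL3. The median over all wild-type peaks of the list was 605. GA3OX1 (AT1G15550) lost a peak of 946 bp and RNA went from 13.1 to 4.18 (q = 0.0237, the authors' deposited table). The others were not called, and RGL3 (AT5G17490), which lost the widest peak of them at 1882 bp, had 1.80 and 0.587 in the authors' deposited table. GA20OX1 had FPKM values of 1.36 and 1.35, and GA2OX2 2.85 and 3.84, in that table.

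**Figure D5:**
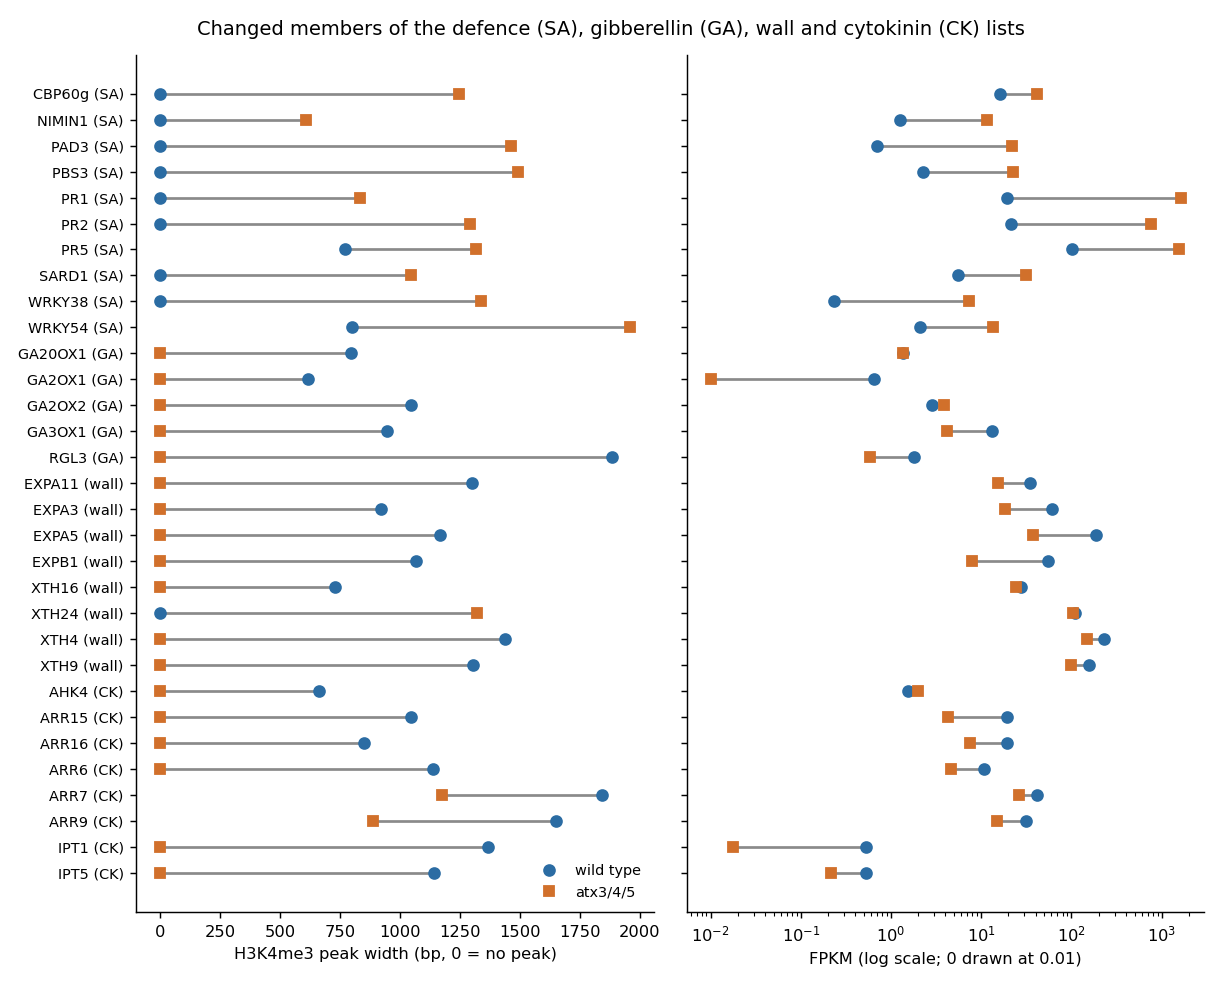
Width in bp of the H3K4me3 peak (left, 0 where there is no peak) and FPKM on a log axis (right) in wild type (blue circles) and atx3/4/5 (orange squares), for every member of the defence (SA), gibberellin (GA), cell wall and cytokinin (CK) lists that lost or gained the mark or changed 1.5 times in width; levels are those of the authors' deposited table. Each genotype has 1 value, and all 10 defence genes have a wider peak in atx3/4/5.

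Cytokinin acts through histidine kinase receptors and response regulators. Of 23 marked cytokinin genes 6 lost H3K4me3: IPT1 and IPT5 (synthesis), the receptor gene AHK4, and the type-A response regulators ARR6, ARR15 and ARR16, which dampen the signal. ARR15 (AT1G74890) lost 1046 bp with RNA from 19.4 to 4.28, called lower (q = 0.0105, the authors' deposited table). ARR6 (AT5G62920) lost 1139 bp with RNA of 10.7 and 4.67, not called, in the authors' deposited table. ARR7 and ARR9 kept narrower peaks, 1840 bp and 1176 bp, and 1648 bp and 889 bp. In the auxin list 7 of 24 marked genes lost the mark, among them the repressor IAA1 (977 bp) and SAUR20 (1258 bp), with FPKM values of 7.74 and 2.84, and 13.3 and 5.40, neither called in the authors' deposited table. SAUR genes lie in clusters of similar copies and may share reads. IAA17 (AT1G04250), another repressor, lost 1100 bp and was called lower, from 79.1 to 21.5, in the authors' deposited table. The influx carrier LAX1 narrowed from 1200 bp to 592 bp.

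Of 12 marked stomatal and epidermal genes 7 lost H3K4me3, and 1 of the 20 tested genes of the list was called lower, with no gene called higher, by the authors' deposited table. These counts are near the shares over all nuclear genes, 5.36% lower and 4.93% higher. The wild-type peaks were weak, with a median score of 123 over all peaks at genes of the list. The kinase gene YDA (AT1G63700) was an exception: its wild-type peak, 1190 bp wide with a score of 1084, was not absent but had a mutant counterpart that no longer reached the locus, and its FPKM was 5.15 and 9.10 in the authors' deposited table. The peptide gene EPFL9 (809 bp), the receptor genes TMM (892 bp) and ERL2 (551 bp), and ATML1 (619 bp), PDF2 (610 bp) and GL3 (342 bp), transcription factor genes of the epidermis, were the others. None of the 7 was called in the authors' deposited table. The receptor kinase gene ER kept a peak narrowed from 1536 bp to 596 bp, and in the leaf polarity list YAB1 (688 bp) and YAB2 (564 bp) lost theirs.

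Some silencing and cell cycle genes lost peaks. Of 20 and 28 tested genes of these lists 0 were called lower, against 5.36% of all nuclear genes, in the authors' deposited table. In lists this short 0 is near that share. Called higher were 3 and 1, against 4.93%, by the same table. The wild-type peaks of the 2 lists had median scores of 444 and 653, against 812 over the peaks of all genes. Of 19 marked DNA methylation and silencing genes 5 lost the mark: AGO4 (961 bp), CMT3 (658 bp), DDM1 (651 bp), DML3 (694 bp) and DCL3 (563 bp). AGO4 had FPKM values of 5.61 and 8.32, and CMT3 2.89 and 5.15, and none of the 5 was called in the authors' deposited table. Of 17 marked cell proliferation genes 4 lost it, among them PCNA1 (AT1G07370), the sliding clamp of replication, with a wild-type peak of 1607 bp whose mutant counterpart no longer reached the locus, and FPKM values of 13.8 and 18.6, not called in the authors' deposited table. The others were KRP3, MCM2 and CYCA2;3. Of 18 marked Polycomb genes RING1B alone lost its peak (570 bp).

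Cold and flavonoid genes were mixed. In the cold and abscisic acid list 4 of 18 marked genes lost the mark, COR15A, RD29A, CBF3 and NCED5. COR15A (AT2G42540), a cold-induced plastid protein, lost 1205 bp with RNA from 123 to 16.4, called lower in the authors' deposited table. RD29A (AT5G52310) lost 2233 bp, the widest absent peak of the genome, with FPKM values of 6.27 and 4.81, not called in the authors' deposited table. NCED3 (AT3G14440), of abscisic acid synthesis, narrowed from 2386 bp to 1568 bp with RNA from 9.99 to 1.92, called lower in the authors' deposited table. Of 4 marked flavonoid genes CHS (1465 bp, at a locus shared with another gene) and CHI (1123 bp) lost the mark and FLS1 narrowed from 1192 bp to 655 bp, none called in the authors' deposited table.

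In other lists no gene lost the mark. None of the 35 marked photosynthesis genes, 19 jasmonate, 13 flowering time, 13 H3K4 methyltransferase and COMPASS, 12 clock, 12 reference and 6 H3K4 demethylase genes lost it. The share over all nuclear genes was 8.33%, so in the shorter of these lists 0 is near that share. Photosynthesis peaks were strong, with a median wild-type score of 2964, against 812 over the peaks of all genes. The part of these scores in the counts was not tested. Of the 34 tested photosynthesis genes 9 were called lower in the authors' deposited table, against 5.36% of all nuclear genes. Among genes marked in both genotypes with a wild-type FPKM above 100 the share called lower was 12.1% by that table. The part of expression level in this count was not tested. Of the 28 genes in a pair 3 subunit genes had narrower peaks, against 2.82% over all genes. These were PSAK (1968 bp and 1236 bp), PSAO (3409 bp and 2183 bp) and PSBW (2110 bp and 1308 bp). PSAK RNA went from 5798 to 1639 and PSBW RNA from 5938 to 1562, both called lower in the authors' deposited table. In the jasmonate list AOC1 (AT3G25760) widened from 817 bp to 1320 bp although its RNA was called lower, from 101 to 24.9, in the authors' deposited table. JAZ5 (765 bp) and the clock gene ELF4 (546 bp) were newly marked, SNZ narrowed from 1795 bp to 1160 bp and SEP4 lost 881 bp, none of these 4 called in the authors' deposited table.

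Families found by words in gene names were also counted. They share members with the lists above, such as expansin and auxin genes, so their counts are not separate from those. Of 13 marked expansin genes 7 lost the mark, of 78 auxin genes 20 (25.6%) and of 85 cytochrome P450 genes 12 (14.1%). Of 28 marked F-box genes none lost it, of 105 ubiquitin genes 3 (2.86%) and of 67 ribosomal protein genes 2 (2.99%). New marks were found in 27 of 115 unmarked receptor genes (23.5%), 10 of 67 NAC genes (14.9%) and 19 of 151 kinase genes (12.6%). Over all nuclear genes the lost share was 8.33% and the new share 2.86%. The new share was 9.99% of unmarked genes with a wild-type FPKM above 1 and up to 10. It was 16.5% of those above 10 and up to 100, with levels from the authors' deposited table. The part of expression in the family counts was not tested.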

How the data were processed

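The authors deposited 1 peak list per ChIP-seq library, with a score per peak, and 1 gene table of RNA with FPKM values, p-values and q-values for wild type and atx3/4/5. The tools, per the submitters' processing notes, included MACS 1.4.2, Bowtie 1.0.1, Cufflinks 2.2.1 and TopHat2 2.0.10, with TAIR10 as the build. The RNA table pools the 2 libraries of a genotype, and its calls are those with a deposited q-value under 0.05. Where nothing says that these libraries came from separate plants, the p-values measure only the spread between them, which may be technical. Peaks were compared by overlap of at least 1 bp, widths were called at a factor of 1.5, and a gene was marked when a peak overlapped its deposited locus. Of 33557 gene IDs 32810 had a name in the RefSeq table (TAIR10.1), and 4249 genes share a merged locus. Named peaks were the 12 with the highest score among absent and gained peaks, the 12 most narrowed and widened strong pairs, and 5 splits and mergers, with up to 6 genes per RNA class. In each gene list the rule named up to 4 members with an absent, gained, narrower or wider peak, by score, and further members were chosen after their values were seen. The members, gene lists and rules were chosen with earlier results of these data known. Scripts (Python 3.11.15, pandas 2.3.3, scipy 1.17.1) were tested on simulated data. No p-value was computed here. 1 gene that the lists hold is not reported here.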

Additional observations from a re-analysis of the deposited data

How the results depend on the processing

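No result reversed under the alternatives run. The absent share of wild-type peaks was 9.84% and became 7.12% for peaks with a score of at least 100, 6.55% with lists of equal length and 9.08% when a mutant peak within 500 bp counted, and the gained share of 3.65% became 2.57%, 6.09% and 3.32%. With a score of at least 100 in both lists the gained share was 4.00%. At a factor of 2 in width 0.496% of pairs were narrower and 0.171% wider, and among pairs with a log2 score ratio within 0.32 these were 0.760% and 0.0621% at a factor of 1.5. Genes with a locus of their own lost the mark in 9.30%. With the unadjusted p of the authors' deposited table under 0.05, genes over absent peaks were lower in 31.2%, those over gained peaks higher in 48.0% and those with narrower pairs lower in 32.1%, while 13.6% of all nuclear genes were lower and 11.96% higher. With the q-value kept, genes that share no locus were lower over absent peaks in 20.6% and higher over gained peaks in 39.3%, against 16.6% and 33.5% of all genes there, by the authors' deposited table. The median log2 FPKM ratio over gained peaks was 0.83 for genes with an FPKM of at least 1 and 1.39 after centring by length, and that of wider pairs was 1.38 and 1.41, from the authors' deposited table. The pairs matched by score and the RNA of genes that share no locus were alternatives added after seeing the data. The causes were not tested. No paired analysis was possible because each mark has 1 library per genotype and the RNA table holds 1 pooled value per genotype, and for the same reason no library could be left out. A peak list does not give the signal under the threshold, so an absent peak is a signal below it and not a measured 0.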
